A study of Mus musculus with 2 samples.

Results

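The 8 genes described here are the mouse cap-binding proteins Eif4e, Eif4e1b, Eif4e2 and Eif4e3, the transporter gene Eif4enif1 (its protein is called 4E-T) and the eIF4E-binding protein genes Eif4ebp1, Eif4ebp2 and Eif4ebp3 (4E-BPs). They were chosen by symbol, and all 8 were found among the 53832 genes of the count table. Polyadenylated RNA was measured in 2 libraries, replicates 1 and 2, of oocytes that the sample titles call small. The oocytes came from the ovaries of female mouse embryos, cultured at 33.3 kPa of external pressure; a CFP reporter under Stella (also called Dppa3) served to sort them. Both libraries belong to this 1 group, so no effect of pressure is measured. The labels name neither strain nor age, and do not say whether the libraries came from separate cultures or animals, so the spread between them may be technical.

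Translation of most mRNAs begins when eIF4E binds the 5′ cap and the scaffold eIF4G. The 4E-BPs compete with eIF4G for the same surface of eIF4E, and the kinase mTOR releases eIF4E by phosphorylating them. 4E-T also occupies that surface, carries eIF4E into the nucleus and is a component of granules in which oocytes keep mRNAs untranslated. Eif4e1b is a paralogue expressed mainly in oocytes, Eif4e2 (4EHP) binds the cap without eIF4G and takes part in translational repression, and Eif4e3 binds the cap in an atypical way. Oocytes store mRNAs for later use, so the balance between these proteins bears on which messages are translated.

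Eif4e1b, Eif4e2 and Eif4e3 differ from one another in a residue that packs against the cap. Their coding sequences around the codon of this residue, found by aligning the encoded proteins, are shown because this codon separates these 3 genes. That codon is in capitals with 15 bases on each side, 5′ to 3′.
Eif4e1b: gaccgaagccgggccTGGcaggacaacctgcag
Eif4e2: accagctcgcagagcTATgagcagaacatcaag
Eif4e3: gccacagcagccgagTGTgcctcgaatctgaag
The sequences were read from GENCODE M21 transcripts on the coding strand, and the capitals lie in GRCm38 at chr13:54784849-54784851 on the plus strand (exon 3), chr1:87221016-87221018 on the plus strand (exon 3) and chr6:99651761-99651763 on the minus strand (exon 2). The codon is number 90 in Eif4e1b, where it codes for tryptophan. It is number 78 in Eif4e2, where it codes for tyrosine, and number 52 in Eif4e3, where it codes for cysteine. On the other side of the cap pocket, the aligned codon was one for tryptophan in each of these 3 genes. Over the aligned residues of the encoded proteins, Eif4e was 55.6% identical to Eif4e1b, 31.6% to Eif4e2 and 29.3% to Eif4e3.

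The proteins of Eif4ebp1, Eif4ebp2 and Eif4enif1 share a short motif that docks on the back of eIF4E: tyrosine, any 4 residues, leucine and a hydrophobic residue. The motif is not described here for Eif4ebp3. The coding bases of the motif are in capitals, with 9 bases on each side, 5′ to 3′ on the coding strand.
Eif4ebp1: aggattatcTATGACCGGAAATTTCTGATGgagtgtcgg
Eif4ebp2: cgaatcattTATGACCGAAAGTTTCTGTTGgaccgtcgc
Eif4enif1: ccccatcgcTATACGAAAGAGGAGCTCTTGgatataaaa
The capitals lie at chr8:27273337-27273357 on the plus strand (exon 2), at chr10:61435069-61435089 on the minus strand (exon 2), and, across an intron, between chr11:3203742-3213271 on the plus strand (exons 2 and 3). Each of these 3 coding sequences held 1 match, with the tyrosine at codon 53 of 117 in Eif4ebp1, codon 54 of 120 in Eif4ebp2 and codon 29 of 983 in Eif4enif1. The last position of the motif could be isoleucine, leucine, methionine, phenylalanine, valine or tryptophan, and 26.1% of 21546 mouse coding sequences hold such a match, so the match alone is a description. The encoded 4E-BP1 and 4E-BP2 were 60.3% identical over 116 aligned residues.

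The libraries held 5019462 and 5274338 expected counts, the estimated reads per gene that were deposited. Over 12182 genes with enough counts, the biological coefficient of variation (the spread beyond counting noise) between the libraries was 7.31%. The sorted cells carried oocyte transcripts: all 8 oocyte markers were expressed, at a median TPM of 642, where TPM is the count per length, scaled to a fixed sum per library, and a gene is called expressed when its TPM was 1 or more in each library. Of 19 markers of granulosa, stroma, endothelium, leukocytes and red cells, 5 were expressed, none above a mean TPM of 3.32, and together they held 134 and 129 counts. Fshr, Tcf21, Ptprc, Adgre1, Tyrobp and Slc4a1 stood at 0 in both libraries. In bulk RNA, fewer cells of a type and less RNA per cell cannot be told apart.

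Among the cap-binding genes, Eif4e was the most abundant, at 2.78 times the mean TPM of the next, Eif4e2, with merged exon lengths. With the length of the longest transcript the means were 100 for Eif4e and 64.7 for Eif4e2, so the size of this lead depends on the length used. Eif4e (ENSMUSG00000028156, chromosome 3, 138526179 to 138559696) had 1164.09 and 1092.21 counts in replicates 1 and 2, or a TPM of 112 and 101 (mean 107 ± 7.69, SD, n = 2). Both libraries stood well above those of every other cap-binding gene, without overlap. Its counts are fractional, as RSEM divides reads that match several genes. Its processed pseudogene Gm7327 on chromosome X, which shares 5.53% of the 50-base stretches of Eif4e, had 9.9 and 16.79 counts.

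Eif4e2 and Eif4e3 stood close together. Eif4e2 (ENSMUSG00000026254, chromosome 1, 87213914 to 87240488) had 510 and 505 counts, or a TPM of 39.4 and 37.5 (38.5 ± 1.31, SD, n = 2). Eif4e3 (ENSMUSG00000093661, chromosome 6, 99625135 to 99666771) had 151 and 167 counts, or a TPM of 34.8 and 37.0 (35.9 ± 1.59, SD, n = 2). Their exact 95% Poisson intervals overlapped in each library, so their order is not resolved with these gene lengths. The level of Eif4e2 depended on its length, with 7497 bases of merged exons and 3473 bases in the longest transcript. With the longest transcript its mean TPM was 64.7, and that of Eif4e3 was then 28.0. Gm20696, a protein-coding gene on the same strand, overlaps 14.8% of the exon bases of Eif4e3 and had 0 counts in both libraries. It shares 11.5% of the 50-base stretches of Eif4e3, so the level of Eif4e3 depends on how reads of these stretches were assigned.

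Eif4e1b, the oocyte paralogue, was the cap-binding gene with the lowest mean and the one that differed between the libraries. Eif4e1b (ENSMUSG00000074895, chromosome 13, 54783998 to 54788459) had 53 counts in replicate 1 and 143 in replicate 2. Its TPM was 13.6 (95% Poisson interval 10.2 to 17.8) in replicate 1 and 35.3 (29.8 to 41.6) in replicate 2, with a mean of 24.5 ± 15.4 (SD, n = 2). In replicate 1 it lay below the other cap-binding genes, and in replicate 2 its interval overlapped those of Eif4e2 and Eif4e3. Relative to Eif4e, its level was 12.1% in replicate 1 and 34.9% in replicate 2. Its processed pseudogene Gm5705 on chromosome 1 shares 4.27% of its 50-base stretches and had 0 counts in both libraries.

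**Figure D1:**
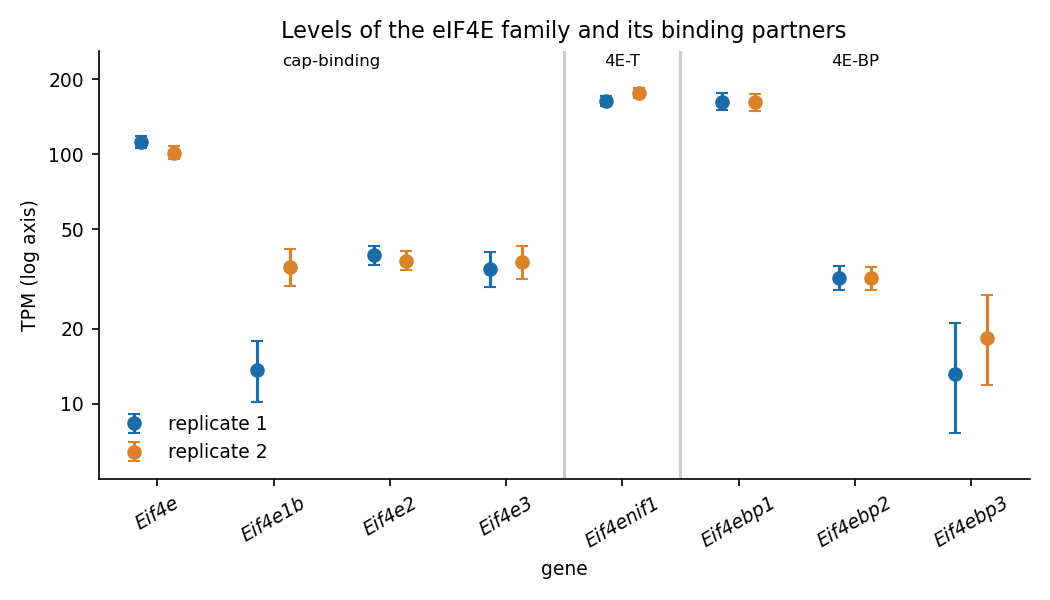
TPM of each gene (log axis) in replicate 1 (blue) and replicate 2 (orange), with exact 95% Poisson intervals as bars, which cover counting error only. Eif4enif1, Eif4ebp1 and Eif4e stand above 100 in both libraries, and Eif4e1b is the 1 gene whose intervals do not overlap between the libraries, with 13.6 and 35.3.

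In the summed level of the 4 cap-binding genes, a TPM of 200 in replicate 1 and 211 in replicate 2, Eif4e took 56.1% and 48.0%. Eif4e2 took 19.7% and 17.8%, and Eif4e3 took 17.4% and 17.5%. The share of Eif4e1b was 6.81% in replicate 1 and 16.7% in replicate 2. Eif4e thus led the cap-binding transcripts in each library, and its share and that of Eif4e1b differed between the libraries by more than those of Eif4e2 and Eif4e3. Shares of 1 sum are bound together, so a higher share of Eif4e1b by itself lowers the others. With the length of the longest transcript, the mean share of Eif4e2 moved from 18.7% to 30.4%, and that of Eif4e from 52.0% to 47.1%.

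Per length, Eif4enif1 and Eif4ebp1 were the most abundant of the 8 genes, each above Eif4e in both libraries. With counts scaled to the library total alone (CPM), the longer Eif4e stood above Eif4ebp1, at a mean of 219 against 122. Eif4enif1 (ENSMUSG00000020454, chromosome 11, 3202392 to 3244588), the gene of 4E-T, had 1800 and 2017 counts, or a TPM of 164 and 176 (170 ± 9.09, SD, n = 2). Eif4ebp1 (ENSMUSG00000031490, chromosome 8, 27260329 to 27276674) had 616 and 638 counts, or a TPM of 162 in each (162 ± 0.356, SD, n = 2). With merged exon lengths their intervals overlapped in each library. With the longest transcript the TPM of Eif4enif1 was 219 and 237, above that of Eif4ebp1 at 139 in each, so how far they stand apart depends on the length used. Eif4ebp1 stood above Eif4e by 1.45 times in replicate 1 and 1.60 times in replicate 2, with no overlap of values or intervals. Mean TPM placed Eif4enif1 above 96.2%, Eif4ebp1 above 95.9% and Eif4e above 93.1% of 21722 protein-coding genes. Among the expressed protein-coding genes alone, these places were lower, at 92.8%, 92.4% and 87.0%.

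The other 4E-BPs were several times lower than Eif4ebp1. Eif4ebp2 (ENSMUSG00000020091, chromosome 10, 61428491 to 61452661) had 320 and 331 counts, or a TPM of 32.0 and 31.9 (32.0 ± 0.0995, SD, n = 2). Eif4ebp3 (ENSMUSG00000090264, chromosome 18, 36664060 to 36665917) had 16.86 and 24.63 counts, or a TPM of 13.1 and 18.4 (15.8 ± 3.77, SD, n = 2), with overlapping Poisson intervals. The level of Eif4ebp3 is uncertain, because 65.5% of its 50-base stretches also belong to AC115631.1, a protein-coding gene on the same strand that overlaps 67.3% of its exon bases and had 119.41 and 88.15 counts. Eif4ebp1 took 78.2% and 76.3% of the summed level of the 3 genes, Eif4ebp2 took 15.4% and 15.0%, and Eif4ebp3 took 6.32% and 8.69%. The lead of Eif4ebp1 over its paralogues was thus seen in both libraries.

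Set against the cap-binding genes, the 3 4E-BPs together reached 1.04 and 1.00 times their summed TPM, and Eif4enif1 alone reached 0.818 and 0.836 times. These are ratios of transcripts per length and not of proteins. They depended on gene length: with the longest transcript the means were 0.827 for the 4E-BPs and 1.07 for Eif4enif1, so neither is read as above or below 1.

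**Figure D2:**
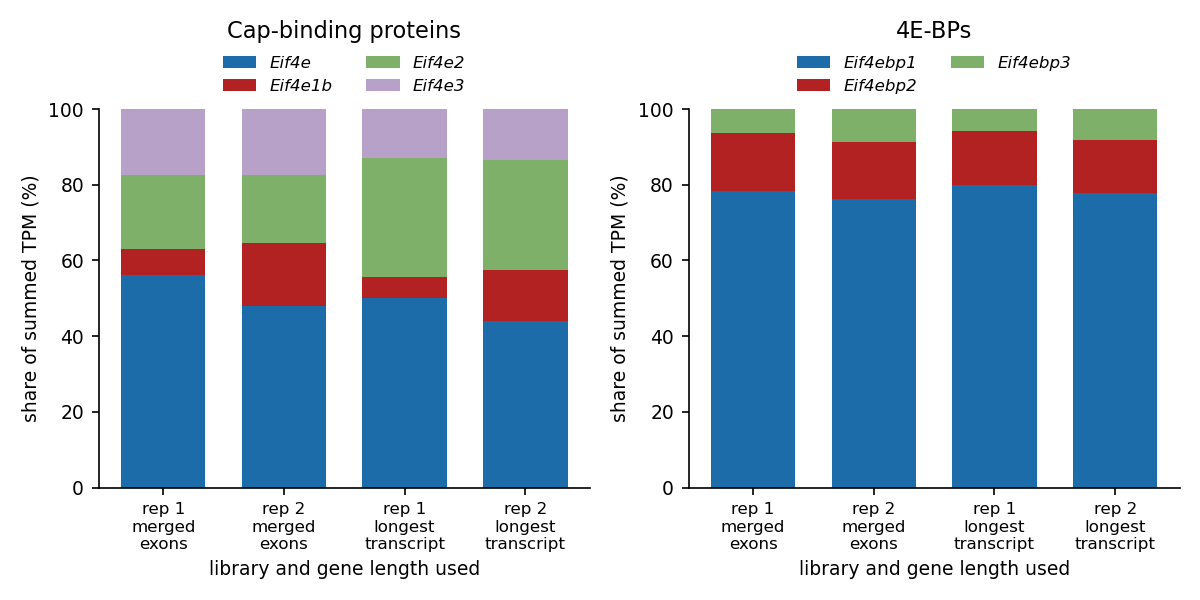
Share of the summed TPM (percent, axis from 0) taken by each cap-binding gene (left) and each 4E-BP gene (right) in replicates 1 and 2, with 2 ways of setting gene length. With merged exons the share of Eif4e1b is 6.81% and 16.7%, and Eif4ebp1 holds 78.2% and 76.3% of the 4E-BP sum.

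In order of mean TPM the genes ran from Eif4enif1 through Eif4ebp1, Eif4e, Eif4e2, Eif4e3, Eif4ebp2 and Eif4e1b to Eif4ebp3. Of the 7 steps in this order, those from Eif4ebp1 to Eif4e and from Eif4e to Eif4e2 had neither overlapping values nor overlapping intervals. At the other steps the counting intervals overlapped in at least 1 library, and at the last 2 the values did as well. With merged exon lengths the set fell into 3 abundant genes above a mean TPM of 100 and 5 genes below 40. The 2 libraries of 1 group give no pattern across conditions, so no other gene was matched to these by likeness of pattern.

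The libraries were then set against each other, which compares these libraries and not conditions. For each gene, an exact binomial test (two-sided) set its counts against the scaled library sizes, and p-values were adjusted over 12182 genes by the Benjamini-Hochberg method. When a call needed an adjusted p below 0.05 together with a 2-fold difference, 1 of the 8 genes was called, against 0.673% of all tested genes. With no fold minimum it was again 1 of 8, against 7.84%. The called gene was Eif4e1b, 2.56-fold higher in replicate 2 (log2 ratio 1.36, counting SE 0.23, adjusted p = 1.3e-07, exact binomial test), and 26 of the 12182 genes had a higher ratio. With a negative binomial test that allows a coefficient of variation of 0.1 between libraries, its adjusted p was 0.011 (edgeR exact test), the highest of a range from 1.3e-07 over the alternatives. The 0.1 was preset and is larger than the 7.31% estimated over the tested genes.

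The other 7 genes lay between log2 ratios of -0.16 and 0.48. Eif4e, at -0.16 (SE 0.06, adjusted p = 0.085, exact binomial test), and Eif4enif1, at 0.10 (SE 0.05, adjusted p = 0.21, exact binomial test), had unadjusted p-values of 0.009 and 0.04 and did not pass the adjusted test. Eif4ebp1 and Eif4ebp2 both stood at -0.02, and Eif4ebp3, with the fewest counts, had the widest error, at 0.48 (SE 0.45). Over the 8 genes the median log2 ratio was 0.03, against 0.00 over all tested genes. The binomial test allows for counting noise alone, while counts of all genes spread more than that between these libraries, where chi-square per degree of freedom was 3.55, so its p-values overstate how firm a difference is.

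**Figure D3:**
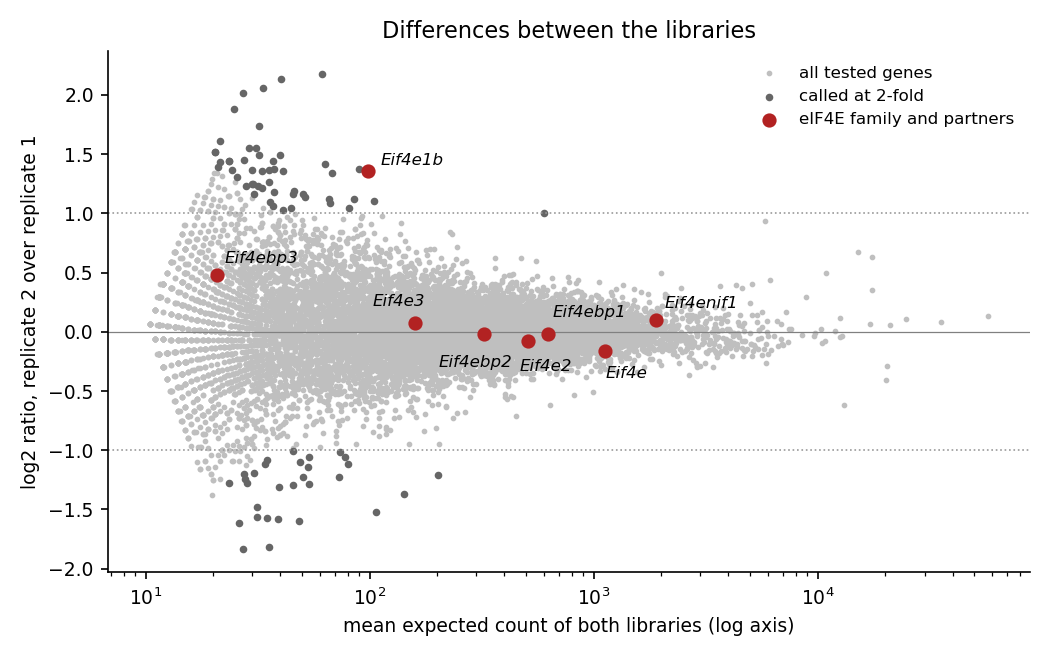
Log2 ratio of replicate 2 to replicate 1 against the mean expected count (log axis) of each tested gene, with genes called at 2-fold in dark grey, the 8 eIF4E family and partner genes in red and dotted lines at 2-fold. Eif4e1b stands at 1.36, and the other 7 genes lie between -0.16 and 0.48.

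Some oocyte genes also differed between the libraries, by less than Eif4e1b and by the binomial test alone. Of the 8 oocyte markers, 4 were higher and 1 was lower in replicate 2 at an adjusted p under 0.05, and none reached 2-fold. Over all tested genes, 7.84% were called in either direction. The binomial test calls smaller differences at higher counts, and the lowest count of a marker was 1247, for Figla in replicate 2. The 7.84% covers genes of all count levels, so it is not a matched share. The negative binomial test of edgeR, with its preset coefficient of variation of 0.1, called 0 of the 8 and 14 of all 12182 tested genes. With so few calls over all genes, the 0 is not read as a result about these markers. Of the 8 markers, 0 had an unadjusted p under 0.05 with that test, a threshold whose share over all genes is not given here. The zona pellucida gene Zp3 stood at a log2 ratio of 0.39 (adjusted p = 4.4e-27, exact binomial test) and the growth factor gene Gdf9 at 0.36 (adjusted p = 3.1e-09, exact binomial test), whereas the germ cell RNA-binding gene Dazl stood at -0.17 (adjusted p = 0.012, exact binomial test). The summed level of the 8 markers was 4087 CPM in replicate 1 and 4420 CPM in replicate 2. The part of these differences in the ratio of Eif4e1b was not tested.

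The partners of the 8 genes were described from 5 lists with 57 genes, of which 55 were expressed, beside 53.5% of all protein-coding genes. The lists were chosen for their roles. No gene of the lists was called at 2-fold between the libraries, and with no fold minimum 5 were higher and 3 lower in replicate 2, out of 55 tested. Over all tested genes the shares called were 0.673% at 2-fold and 7.84% with no fold minimum. An unadjusted exact binomial p under 0.05 was reached by 16 of the 55 list genes. The share of all tested genes at that threshold is not given here, so the 16 are not read as a result about the lists. The negative binomial test of edgeR called none of the 55 list genes and 14 of all 12182 tested genes. With so few calls over all genes, none of 55 is not read as a result about the lists. Of the 55, 1 had an unadjusted p under 0.05 with that test. The share of all tested genes at that threshold is likewise not given here.

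The listed genes of the initiation complex eIF4F, of poly(A)-binding proteins and of their partners had a median TPM of 203. The median was 2.57 for all protein-coding genes and 24.2 for those expressed. The helicase gene Eif4a1 led at 521 ± 17.0 (SD, n = 2), followed by the helicase cofactor gene Eif4b at 331 ± 15.2 and the poly(A)-binding gene Pabpc4 at 330 ± 7.03. The scaffold genes Eif4g1 and Eif4g3, named for their role after their values were seen, stood at 143 ± 1.64 and 102 ± 0.814, on either side of the mean of Eif4e. Of the 13 genes, 12 were expressed. The exception was the oocyte poly(A)-binding gene Pabpc1l, with 5 and 3 counts.

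The kinases and other regulators of eIF4E and the 4E-BPs were all expressed, 10 of 10, at a median TPM of 29.1. Highest were Pdcd4, an inhibitor of the helicase eIF4A, at 155 ± 6.37, and the kinases Mknk2 and Mknk1, which phosphorylate eIF4E, at 113 ± 2.13 and 49.5 ± 2.41. Mtor stood at 34.9 ± 3.63 (named after its value was seen). At the low end were Mlst8, a subunit of mTOR complexes, at 17.2 ± 0.645 and Klhl25, which targets 4E-BP1 for degradation, at 14.9 ± 0.117. Messenger levels do not show how far the 4E-BPs were phosphorylated.

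The repressor partners of eIF4E2 were also all expressed, 9 of 9, at a median TPM of 24.1, or 42.5 with the longest transcript. Gigyf1 and Gigyf2 code for the adaptors that bind eIF4E2. Gigyf1 stood at 63.3 ± 4.92, and Gigyf2, named after its value was seen, at 24.1 ± 0.112. Zfp598, a ubiquitin ligase that senses collided ribosomes and works with them, stood at 54.6 ± 4.09. The AU-rich element binding gene Zfp36l2 led the list at 153 ± 16.2, while its paralogues Zfp36l1 and Zfp36 were lowest at 5.92 ± 2.31 and 4.92 ± 0.827.

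The list of 4E-T partners and mRNA storage genes also holds mRNA decay genes such as Dcp2 and Xrn1. It had the most abundant genes of the 5 lists. Over both kinds of gene the median TPM was 70.9, and 13 of 14 were expressed. Ybx2, which coats stored mRNA, stood at 1303 in mean TPM, Lsm14b, an oocyte partner of 4E-T and Ddx6, at 899 ± 55.4, and Cpeb1, which binds cytoplasmic polyadenylation elements, at 392 ± 1.87. Each stood above Eif4enif1 in both libraries. At the low end, Xrn1 stood at 11.6 ± 1.69 and Patl2 at 8.95 ± 2.56, and Zar1l had 0 and 2 counts. Zar1, which is known to act with EIF4E1B in oocytes and was named after its value was seen, had 209.15 and 331.73 counts, or a TPM of 34.9 and 53.4. Its log2 ratio of replicate 2 to replicate 1 was 0.60 (SE 0.13, adjusted p = 0.00016, exact binomial test), a call that the negative binomial test did not make (adjusted p = 0.99, edgeR exact test). In the same list Ybx1 (also named after its value was seen), at -0.29 (adjusted p = 5.9e-07, exact binomial test), and Lsm14b, at -0.14 (adjusted p = 0.00032, exact binomial test), were lower in replicate 2 and were likewise not called by the negative binomial test.

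The other proteins that bind the cap or eIF4E were all expressed, 11 of 11, at a median TPM of 56.9. Eif3d, a subunit of the eIF3 complex that can itself bind the cap, stood at 127 ± 4.17. Ncbp2 and Ncbp1, the subunits of the nuclear cap-binding complex, stood at 105 ± 1.80 and 84.4 ± 0.381. Ncbp2 was thus near Eif4e, at 107 ± 7.69, with overlapping values. The lowest were Cyfip1 and Cyfip2, which bind eIF4E together with the protein of Fmr1, at 23.8 ± 0.406 and 10.2 ± 0.00737.

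**Figure D4:**
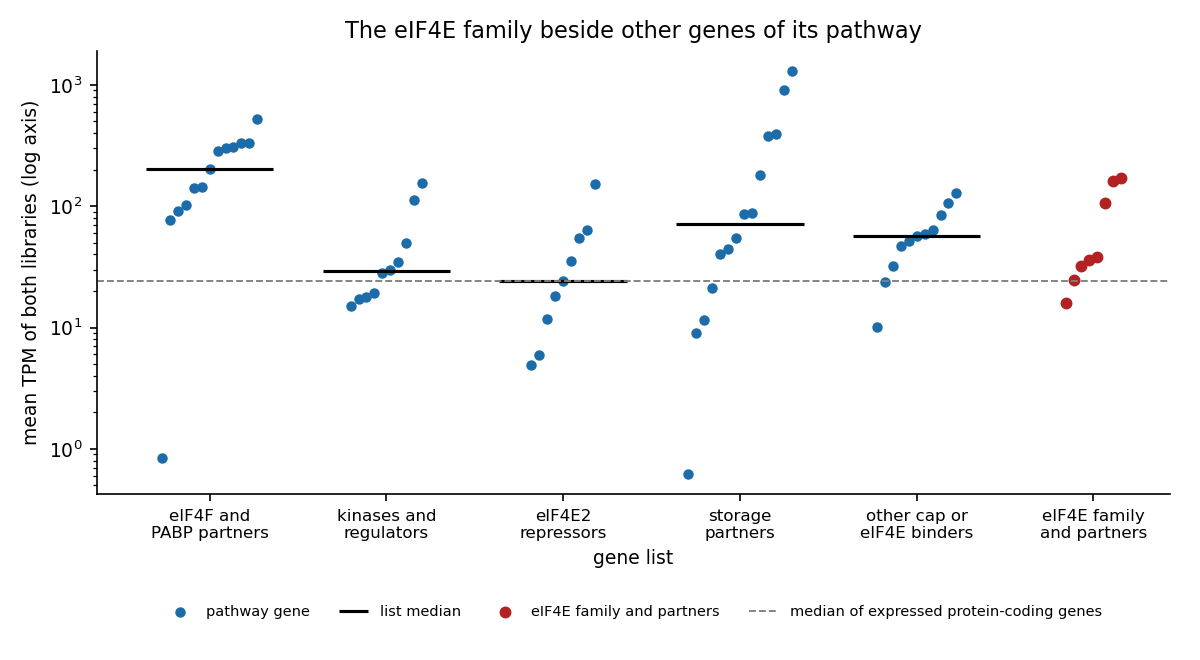
Mean TPM of both libraries (log axis) for each gene of the 5 pathway lists (blue), with the list median as a black line, and for the 8 eIF4E family and partner genes (red); the dashed line is the median of expressed protein-coding genes, 24.2. The eIF4F list has the highest median, 203, and the 8 red points run from 15.8 to 170.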

How the data were processed

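The authors deposited expected counts (estimated reads per gene, scaled for neither depth nor length); 7.08% and 6.97% of them were not whole in replicates 1 and 2. The submitters' processing notes name fastp 0.20.0, STAR 2.7.7a, RSEM and build GRCm38; per the labels' protocols, strand-specific libraries were amplified by 12 cycles of PCR. The sources used here do not give annotation release, strand setting or read length. A further 21 columns matching no sample of this series were not used.

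From these counts, TPM was computed with merged exon lengths of GENCODE M21, which 53579 of 53832 gene IDs matched. Poisson 95% intervals are exact and, like the test, cover counting error only, since PCR copies are not independent molecules. Counts were rounded for the test between libraries (filterByExpr and TMM of edgeR 4.0.16, R 4.3.3, prior count 0.5). This test was tried on simulated counts with Poisson noise alone, which cannot show how it fares at the wider spread of these libraries. Alternatives used DESeq2 1.42.0 size factors, library totals, no count filter, other lengths, CPM, totals without mitochondrial genes, and each library left out. Sequences were aligned with Biopython 1.88 (BLOSUM62); the stretch of Eif4e is not reported here. The genes, lists and tests were chosen with earlier results of these data known; named partners are the 3 highest and 3 lowest of a list, where the text turns on them, or are marked.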

Additional observations from a re-analysis of the deposited data

How the results depend on the processing

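Eif4e1b was the 1 member called, at 2-fold and with no fold minimum, under each of the 5 alternatives of the test, and no member's ratio changed sign. Over all genes, the 82 called at 2-fold became 211 without a count filter and 13 with the negative binomial test, and the 955 with no fold minimum became 14 with that test. With CPM in place of TPM, 4 of the 8 genes kept their place in the order, and Eif4e then stood above Eif4ebp1; with the longest transcript all 8 did. The longest transcript moved the mean share of Eif4e2 to 30.4%, Eif4e3 to 13.1%, Eif4ebp1 to 78.9% and Eif4ebp2 to 14.1%, the ratio of 4E-BPs to cap-binding genes to 0.827, of Eif4enif1 to them to 1.07, and of Eif4ebp1 to Eif4e to 1.39. It moved list medians to 298 (eIF4F partners), 31.5 (kinases and regulators) and 42.5 (eIF4E2 partners), since each gene's length changed. Those of the list of 4E-T partners and of the other binders became 73.8 and 51.4. Without either library the median of other binders was 55.9 to 56.6. Totals without mitochondrial genes moved the level of 6 of the 8 genes by at least its SD between libraries. No paired analysis was possible because there is 1 group. The counts of Eif4ebp3 and Eif4e1b, the lowest of the set, limit their precision.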
